A study of Mus musculus with 2 samples.

Results

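The genes described here are 44 regulators and machines of the cell division cycle, measured in peeled mouse epidermis with and without a keratinocyte deletion of Nfkbiz, the gene of the nuclear IκB protein IκBζ. They were taken as a fixed list of symbols, 28 that act mainly in mitosis, 15 that act in DNA replication or the entry into it, and the G1 cyclin gene Ccnd1, and every array probe whose RefSeq accession belongs to them was read. Of the 44 genes, 41 had such a probe (57 probes in all), out of 18202 genes that could be named on the array. Prc1, Rrm2 and Ccnd1 were not analysed here, which leaves 27 mitotic and 14 replication genes and no G1 cyclin among them. All 41 genes passed the filter on low signal, a probe well above background on the control and the knockout array.

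The series holds 2 one-colour arrays, 1 for each genotype, in the steady state. Both samples had the same preparation, with 3.8% thiocyanate for 30 min at 37 °C and 0.5 µg of RNA. The control RNA came from epidermis with floxed Nfkbiz alleles and no recombinase (Nfkbiz flox/flox). The other RNA, called knockout below, came from Nfkbiz flox/flox K5-cre epidermis, where the keratin 5 promoter drives the recombinase in basal keratinocytes. Both genotypes thus carry the floxed alleles. The deletion is aimed at keratinocytes, so cell types of the epidermis other than keratinocytes would keep the gene. Age, sex and the number of mice behind each RNA are not given in the sources used here. With 1 array per genotype there is no replicate check, so nothing below was tested, differences are described by size. Precision is limited by having so few arrays.

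Nfkbiz itself had signals of 3100 and 1760 on the control and knockout arrays (log2 difference -1.04 ± 0.20). The 75th percentile of signal was 205 and 239, and 56.3% of probes were well above background on each array. Each difference is a log2 value, knockout minus control, after the 75th percentile of its array was subtracted. The value after ± is the standard error (SE) from the scanner software's error model, which takes in technical error alone and leaves out how mice vary. Keratinocyte markers were bright: Krt5, Krt14, Krt1, Krt10 and Lor had signals between 26300 and 80200. All 4 endothelial markers were not well above background on either array. Markers of other tissues were also read, some unequally, such as Hba-a1 of red blood cells (8510 and 1520) and Myl1 of skeletal muscle (340 and 19.4). Col1a1 of fibroblasts was closer (968 and 1115, or -0.02 ± 0.20 after scaling), at a probe near a spot marked as non-uniform. Its other measured probe gave -0.41. The 5 measured fibroblast markers had a median of -0.32, with Dcn lowest at -0.73. In a bulk sample, fewer cells of a type and less RNA per cell cannot be told apart, and the share of dividing cells was not measured.

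In the cell cycle, E cyclins with their kinase drive cells from G1 into S phase, where the licensing factors Cdc6 and Cdt1 have loaded the MCM helicase onto replication origins. Most genes of this step are switched on by E2F factors. Cyclins A and B with Cdk1 then drive mitosis, and the genes of that step are switched on later, by the MuvB complex with B-Myb and FoxM1 acting at a promoter element called the cell cycle genes homology region (CHR), often with NF-Y at CCAAT boxes. In epidermis, division is found mainly in the basal layer and in the hair follicle.

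The promoters of the 2 classes differed in these elements, as read from the genome and not from the arrays. Promoters of 300 bases (250 before and 50 after the start, RefSeq, GRCm38.p6) were at hand for 35 of the 44 genes, and each was searched on both strands for the CHR core TTTGAA, for CCAAT, and for the E2F motifs TTTCCCGC, TTTGGCGC, TTTCGCGC and TTTGCCGC. The CHR core was found in 17 of 23 mitotic genes (73.9%), in 1 of 12 replication genes (8.33%) and in 20.2% of all 27025 genes with a promoter in the same table. An E2F motif was found in 1 of 23 mitotic genes (4.35%, Cdk1), in 6 of 12 replication genes (50%) and in 2.61% of all genes. CCAAT was common throughout, with 19 of 23 mitotic genes, 8 of 12 replication genes and 41.1% of all genes. A match describes letters in a window and is not a measured binding site.

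The promoters of the 3 mitotic and the 3 replication genes with the highest difference, and of Cdt1, the member with the lowest, show what this looks like. Capitals mark matches to the motifs named above, on either strand, and matches of different motifs do not overlap in these 7 promoters. Builds and strands follow each name, and each sequence runs 5′ to 3′ along its gene.
Cenpa (GRCm38.p6 chr5:30666636-30666935, plus strand): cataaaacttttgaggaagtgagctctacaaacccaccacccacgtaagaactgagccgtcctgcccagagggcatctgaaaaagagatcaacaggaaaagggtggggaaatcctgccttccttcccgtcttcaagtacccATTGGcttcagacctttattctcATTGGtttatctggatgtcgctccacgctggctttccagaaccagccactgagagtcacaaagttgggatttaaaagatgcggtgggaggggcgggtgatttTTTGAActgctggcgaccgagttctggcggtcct
Kif23 (GRCm38.p6 chr9:61946750-61947049, minus strand): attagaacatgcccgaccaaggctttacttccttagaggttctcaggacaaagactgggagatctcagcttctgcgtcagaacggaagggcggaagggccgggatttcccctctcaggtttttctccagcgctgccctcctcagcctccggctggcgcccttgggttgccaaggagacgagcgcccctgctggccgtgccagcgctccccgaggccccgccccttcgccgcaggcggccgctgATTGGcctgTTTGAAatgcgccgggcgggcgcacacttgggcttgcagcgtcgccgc
Plk1 (GRCm38.p6 chr7:122159185-122159484, plus strand): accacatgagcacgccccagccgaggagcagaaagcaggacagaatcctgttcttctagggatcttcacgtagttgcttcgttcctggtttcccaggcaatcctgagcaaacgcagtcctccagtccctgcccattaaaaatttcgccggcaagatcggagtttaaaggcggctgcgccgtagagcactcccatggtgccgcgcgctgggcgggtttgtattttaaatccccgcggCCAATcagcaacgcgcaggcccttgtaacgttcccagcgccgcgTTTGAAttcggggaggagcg
Ccne1 (GRCm38.p6 chr7:38107441-38107740, minus strand): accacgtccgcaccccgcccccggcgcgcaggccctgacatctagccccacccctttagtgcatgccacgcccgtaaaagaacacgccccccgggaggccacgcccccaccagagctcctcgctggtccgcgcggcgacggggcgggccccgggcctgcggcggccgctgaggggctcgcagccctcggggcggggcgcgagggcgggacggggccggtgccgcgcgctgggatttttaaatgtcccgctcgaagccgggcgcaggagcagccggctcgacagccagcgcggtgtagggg
Mcm3 (GRCm38.p6 chr1:20820263-20820562, minus strand): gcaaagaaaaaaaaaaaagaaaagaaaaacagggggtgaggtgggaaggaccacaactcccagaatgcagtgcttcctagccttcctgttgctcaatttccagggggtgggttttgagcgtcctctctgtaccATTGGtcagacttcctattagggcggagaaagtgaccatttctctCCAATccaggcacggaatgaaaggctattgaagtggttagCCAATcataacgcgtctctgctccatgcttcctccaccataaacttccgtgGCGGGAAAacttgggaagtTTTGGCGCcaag
Pcna (GRCm38.p6 chr2:132253131-132253430, minus strand): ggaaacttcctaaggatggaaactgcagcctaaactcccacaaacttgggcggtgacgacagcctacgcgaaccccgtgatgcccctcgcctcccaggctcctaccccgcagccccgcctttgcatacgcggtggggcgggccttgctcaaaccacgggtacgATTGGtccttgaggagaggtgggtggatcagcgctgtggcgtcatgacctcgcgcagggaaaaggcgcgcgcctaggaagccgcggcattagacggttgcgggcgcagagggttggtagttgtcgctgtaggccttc
Cdt1 (GRCm38.p6 chr8:122567765-122568064, plus strand): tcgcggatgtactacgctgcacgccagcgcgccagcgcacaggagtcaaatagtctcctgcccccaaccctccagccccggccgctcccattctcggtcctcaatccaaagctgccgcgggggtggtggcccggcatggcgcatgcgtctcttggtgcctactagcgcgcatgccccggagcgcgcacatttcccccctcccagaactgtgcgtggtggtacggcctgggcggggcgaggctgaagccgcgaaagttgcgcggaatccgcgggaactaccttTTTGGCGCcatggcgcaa
In Cenpa, Kif23 and Plk1 the CHR core begins 17, 3 and 31 bases into the transcript, with a CCAAT box upstream in each. Mcm3 has E2F motifs from bases 20 and 39 after its start, and Cdt1 has 1 from base 33. The windows of Ccne1 and Pcna hold neither a CHR core nor an E2F motif. Medians of genes with and without a motif lay close together within a class and had no common order. The median difference was 0.55 for the 16 measured mitotic genes with a CHR core (Prc1, which has 1, was not analysed here) and 0.59 for the 6 without, and 0.25 for the 6 replication genes with an E2F motif and 0.36 for the 5 without. For CCAAT it was 0.55 with (18 genes) and 0.62 without (4) among mitotic genes, and 0.34 with (7) and 0.27 without (4) among replication genes. Cdk1, the mitotic gene with an E2F motif, was at 0.72, and the 21 without had a median of 0.56.

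Cell division genes were higher on the knockout array as a group, mitotic genes more so than replication genes, and most of them by less than 2-fold. The median difference was 0.56 for mitotic genes, 0.32 for replication genes and -0.04 for the 12406 genes that passed the signal filter. Of the 41 members, 37 had a difference above 0, against 46.1% of all genes, and 38 lay above the median gene. At least 2-fold higher were 5 members (12.2%, background 3.03%), and at least 1.5-fold higher were 16 (39.0%, background 10.1%). At least 2-fold lower were 0 members (background 4.39%), and at least 1.5-fold lower were also 0 (background 13.2%). Median scaling adds 0.32 to every difference. It gives 14 members at least 2-fold higher (background 7.69%) and 32 at least 1.5-fold higher (background 25.3%), with 0 members lower at either size (background 2.37% and 5.53%), while the distance of the member median from the median gene is 0.58 under either scaling.

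By class, 13 of 27 mitotic genes (48.1%) and 3 of 14 replication genes (21.4%) were at least 1.5-fold higher. A difference above 2 SE was seen in 20 of 27 mitotic genes and 4 of 14 replication genes, against 16.0% of all genes (the replication genes were Pcna, Mcm3, Mcm5 and Ccne1). The 2 distributions overlapped: 23 of 27 mitotic genes lay above the replication median, and 3 of 14 replication genes lay above the mitotic median. The gap of 0.24 between the medians was not tested. Normexp, another way to subtract background, was run with an offset of 50 added to every signal, which shrinks the differences of dim probes. With it, 6 of the 16 members were no longer at least 1.5-fold higher: Aurkb (0.23), Ccnb1 (0.38), Cdk1 (0.33), Kif11 (0.15), Ndc80 (0.02) and Mcm3 (0.41).

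**Figure D1:**
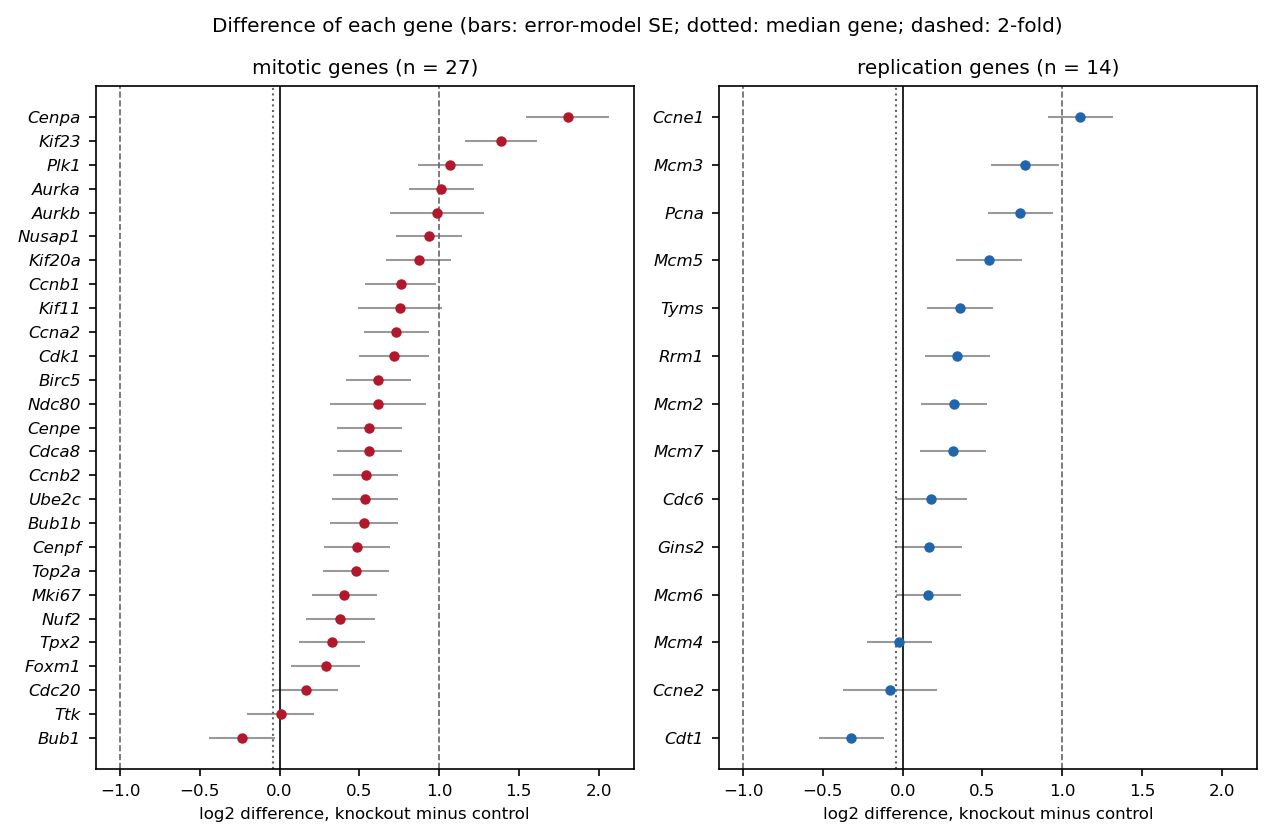
Log2 difference (knockout minus control) of each gene, mitotic genes on the left and replication genes on the right, with error-model SE as bars, the median of all genes as a dotted line and 2-fold as dashed lines. Of the mitotic genes 26 of 27 lie above 0 and of the replication genes 11 of 14, with Cenpa highest at 1.81 and Cdt1 lowest at -0.32.

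Among the genes that start S phase, Cdt1 was not higher on the knockout array, and the probes of Cdc6 gave different sizes. Cdt1, which brings the helicase to origins, had signals of 1900 and 1770 on the control and knockout arrays (-0.32 ± 0.20), the lowest difference of all members. Cdc6, its partner in loading, read 52.4 and 69.1 at its brighter probe (0.18 ± 0.22). Its dimmer probe read 13.8 and 38.6, a difference of 1.26 ± 0.36, and the mean over its probes was 0.72. With normexp its brighter probe was at -0.05.

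The 6 subunits of the MCM2-7 helicase, which unwinds DNA at the fork, ranged from -0.02 to 0.77 with a median of 0.32, and their proteins act as a complex with a copy of each. Mcm3 was highest, with 87.2 and 173 (0.77 ± 0.22). Mcm5 followed with 313 and 531 (0.54 ± 0.20). The other subunits lay closer together on the arrays: Mcm2 (0.32) and Mcm7 (0.32) in the middle, Mcm6 (0.16) and Mcm4 (-0.02) lowest.

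Pcna, the sliding clamp of the replication polymerases, had a probe that was spotted 10 times. Its spots ran from 3810 to 4480 (median 4170) in the control and from 7700 to 8460 (median 8060) in the knockout, so the spots of the 2 arrays did not overlap. The log2 difference was 0.74 ± 0.20, or 1.67-fold, and the 10 spots gave 0.63 to 0.86. Repeat spots measure the same RNA and say nothing of the spread between mice. Gins2, a subunit of the helicase's GINS partner, read 153 and 200 (0.17 ± 0.21), within its SE of 0.

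The genes of nucleotide supply lay close together, and the E cyclins far apart. Rrm1, the large subunit of ribonucleotide reductase, read 738 and 1090 (0.34 ± 0.20). Tyms, which makes thymidylate, read 1090 and 1630 (0.36 ± 0.20), with 0.37 at its other probe. Both were a little higher on the knockout array by less than 2 SE. Ccne1, the cyclin of S phase entry, read 342 and 863 at its brighter probe (1.11 ± 0.20, 2.16-fold), the only replication gene past 2-fold. Its dimmer probe read 31.6 and 43.2 (0.23 ± 0.27), and the mean over its probes, 0.67, is under 2-fold. Ccne2, the related cyclin, read 43.9 and 48.5 (-0.08 ± 0.29). The signs of Ccne2 and of Mcm4 turn to positive under median scaling, at 0.24 and 0.30.

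**Figure D2:**
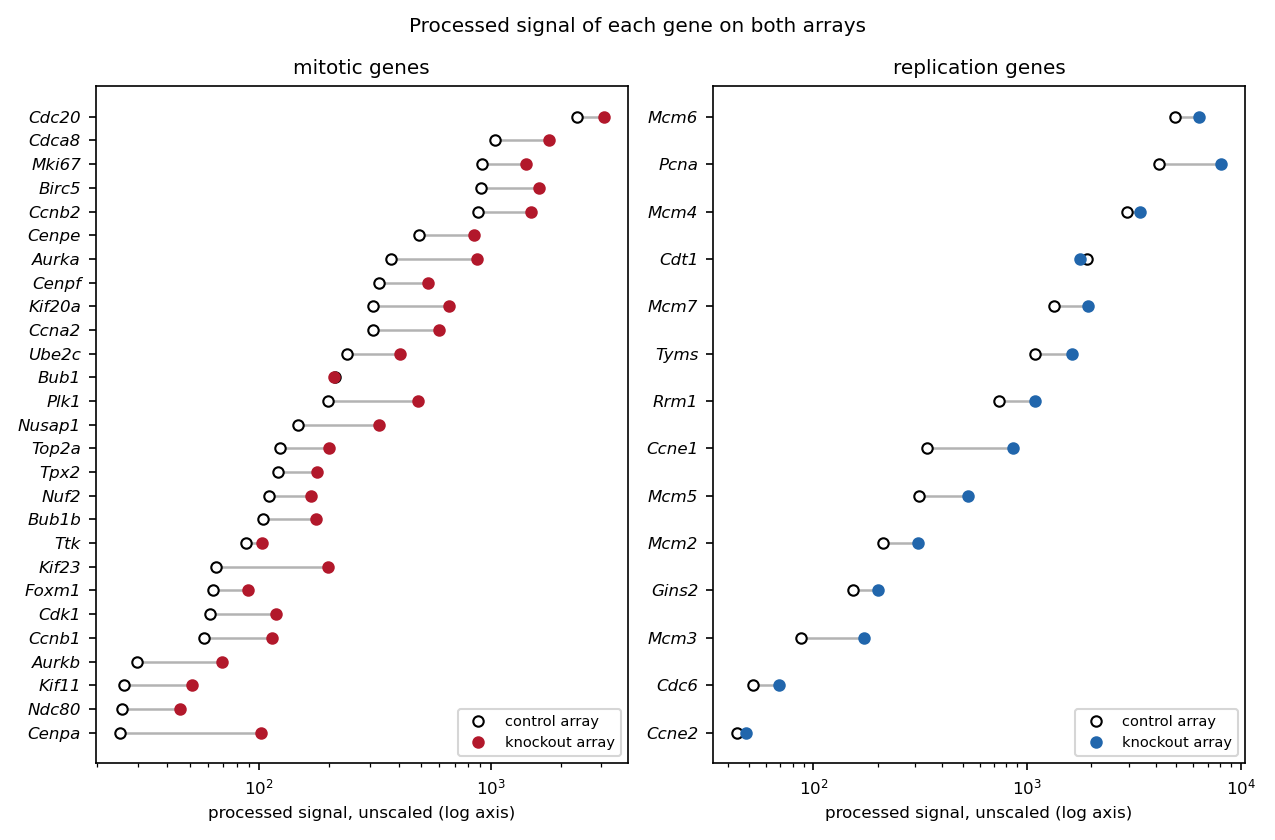
Processed signal (log axis, before scaling between arrays) of each gene on the control array (open circles) and the knockout array (filled circles), for mitotic genes on the left and replication genes on the right, each panel with its own range. Filled circles lie to the right for every gene but Bub1 and Cdt1. These signals are unscaled, and the arrays differ in level. The 75th percentile was 239 on the knockout array and 205 on the control array, while the median signal was 21.3 and 22.8.

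The cyclins that drive mitosis and their kinase differed by much the same amount. Ccnb1 read 57.8 and 114 (0.76 ± 0.22), and its other probes gave 0.70 and 0.97, the last near a spot marked as non-uniform. Ccna2, cyclin A of S and G2 phase, read 309 and 598 (0.73 ± 0.20), near a spot marked as non-uniform. Cdk1, the kinase that they activate, read 61.6 and 118 (0.72 ± 0.22). Ccnb2 read 879 and 1490 (0.54 ± 0.20). All 4 lay between 1.45-fold and 1.69-fold higher on the knockout array.

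The mitotic kinases that act with Cdk1 reached 2-fold. Plk1, which promotes mitotic entry and centrosome maturation, read 198 and 485 (1.07 ± 0.21, 2.10-fold). Aurka, the centrosomal Aurora kinase, read 369 and 869 (1.01 ± 0.20, 2.02-fold). Tpx2, which activates Aurka on spindle microtubules, differed less than either, with 121 and 177 (0.33 ± 0.21). With normexp both kinases were just under 2-fold, at 0.94 each.

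The chromosomal passenger complex corrects faulty attachments of chromosomes to the spindle. Its 3 genes among the members were all above 0 (46.1% of all genes). Incenp, a gene of this complex outside the members, read 1160 and 1450 (0.10 ± 0.20), within its SE of 0. Aurkb, its kinase, read 29.8 and 68.9 (0.99 ± 0.30), a dim probe whose difference was 0.23 with normexp. Birc5, which encodes survivin, read 904 and 1620 (0.62 ± 0.20). Cdca8, which encodes borealin, read 1040 and 1790 at its brighter probe (0.56 ± 0.20).

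At the centromere, Cenpa stood above all other members. Cenpa, the histone H3 variant that marks centromeres, read 25 and 102 (1.81 ± 0.26, 3.50-fold). Its control signal is close to 12.7, the lowest signal well above background there, and with normexp the difference was 0.81. The kinetochore genes Ndc80 (0.62 ± 0.30), Cenpe (0.56 ± 0.20), Cenpf (0.48 ± 0.20) and Nuf2 (0.38 ± 0.22, near a non-uniform spot) lay lower. Ndc80 and Nuf2 encode partners in the complex that holds microtubules, and Cenpe is a kinesin that moves chromosomes.

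All 4 measured members grouped here as kinesin and spindle genes were at least 1.5-fold higher (background 10.1%), though Kif11 was not with normexp (0.15). This grouping leaves out the kinesin gene Cenpe (0.56) and Tpx2 (0.33), described above, which were below that size, so the count depends on it. Kinesin genes of the further mitotic list given below ran from 0.35 (Kif2c) to 1.26 (Kif18a). Kif23, a kinesin of the central spindle and cytokinesis, read 65.2 and 199 (1.39 ± 0.23, 2.62-fold), and its other probe read 55.1 and 145 (1.17 ± 0.23). Nusap1, a microtubule-bundling protein, read 147 and 328 (0.94 ± 0.21). Kif20a, a kinesin of cytokinesis, read 310 and 662 (0.87 ± 0.20). Kif11, the kinesin that pushes spindle poles apart, read 26.0 and 51.2 (0.76 ± 0.26). Both probes of Kif23 passed 2-fold, which no other member showed with several probes, and with normexp its value was 0.79.

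Genes of the spindle checkpoint, which delays anaphase until chromosomes are attached, and of its target were spread, with Ttk and Cdc20 near 0 and Bub1b and Ube2c near the mitotic median. Ttk read 87.9 and 103 (0.01 ± 0.21). Bub1b, a checkpoint protein that restrains anaphase, read 104 and 175 (0.53 ± 0.21). Bub1 read 213 and 211 at its brighter probe (-0.23 ± 0.21) and 55.7 and 114 at its other probe (0.81 ± 0.22). These Bub1 probes were designed on different RefSeq accessions and disagree in sign, the only such case among 8 members with several measured probes, so its direction is uncertain. Under median scaling its brighter probe was at 0.08. Ttk was at -0.10 with normexp. Cdc20, the activator of the anaphase ubiquitin ligase that the checkpoint blocks, read 2350 and 3070 (0.16 ± 0.20), and Ube2c, the ligase's partner enzyme, 239 and 404 (0.54 ± 0.21).

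Of widely used marks of dividing cells, Mki67 and Top2a were only modestly apart, while Pcna, given above, was at 0.74. Mki67, which encodes the Ki-67 antigen, read 919 and 1420 at its brighter probe and 153 and 248 at the other (0.41 ± 0.20 and 0.48 ± 0.21). Top2a, which untangles sister chromosomes, read 123 and 200 (0.48 ± 0.21), near a non-uniform spot. Foxm1, a transcription factor of the mitotic programme, read 62.9 and 89.6 (0.29 ± 0.22). None of the 3 reached 1.5-fold.

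Longer lists of genes of the same pathway, which share no member with those above, gave the same order of the classes under the main processing. They were read from the same 2 RNAs and chosen with earlier results of these data known, so they are not an independent check. Of 46 further mitotic genes with measurable signal, 20 (43.5%, background 10.1%) were at least 1.5-fold higher and 0 lower (background 13.2%), with a median of 0.49. Of 38 further replication genes, 7 (18.4%, background 10.1%) were at least 1.5-fold higher and 0 lower (background 13.2%), with a median of 0.30. The largest in the mitotic list were Aspm, a spindle pole gene (1.59 ± 0.34), Sgo2a, a protector of cohesin (1.48 ± 0.31), Cks2, a Cdk subunit (1.36 ± 0.20), and Kif18a, a kinesin (1.26 ± 0.25). In the replication list they were the chromatin assembly gene Chaf1a (41.5 and 137, 2.83-fold, near a non-uniform spot), the helicase cofactor gene Cdc45 (1.38 ± 0.35), Rpa3 (1.16 ± 0.21) of the single-strand binding complex and Hells (1.07 ± 0.23). With normexp the order of these lists turned, to 0.21 for mitotic and 0.22 for replication genes, so it is not stable to that setting. Whether the background correction or the offset of 50 turned it was not tested.

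**Figure D3:**
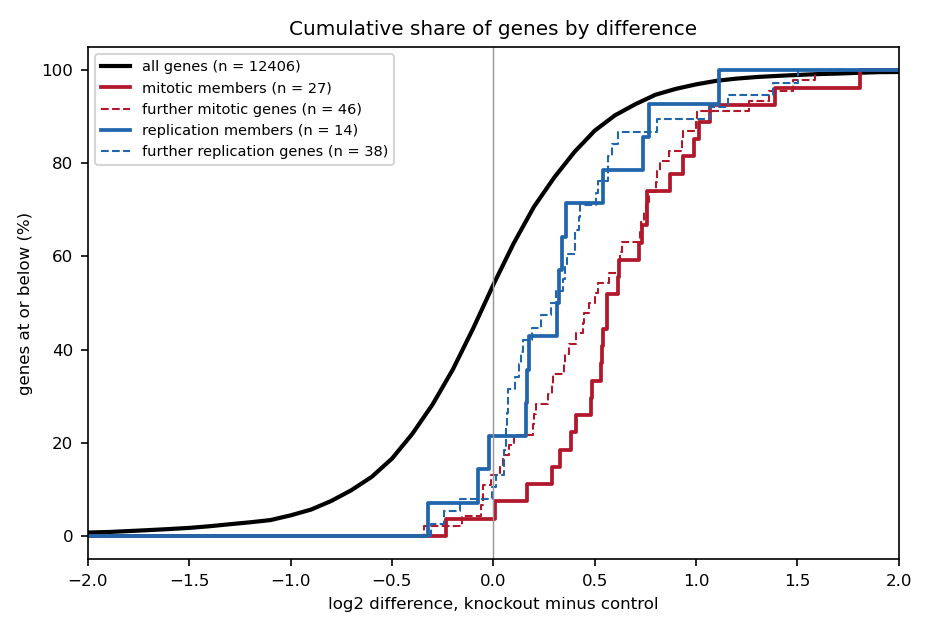
Cumulative share of genes (%) at or below each log2 difference, for all 12406 measured genes (black), the mitotic and replication members (solid) and the further genes of each class (dashed). Below a difference of 1 all 4 lists lie to the right of the black curve, and the mitotic lists lie furthest right over most of the range.

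Regulators upstream of the cycle had no common direction. Among 11 measured G1 regulators, with a median of 0.10, 2 were at least 1.5-fold higher (18.2%, background 10.1%) and 1 lower (background 13.2%). The largest were Cdk6, a cyclin D kinase (-1.41 ± 0.21, with -0.37 at its other probe), Myc (1.40 ± 0.20, and up to 1.69 at its other probes), Mycn (0.95 ± 0.30, and 0.25) and Rbl1 (0.45 ± 0.21), a relative of the retinoblastoma protein. Among 15 E2F and MuvB genes, with a median of -0.02, the largest were E2f2 (1.23 ± 0.20), E2f7 (1.16 ± 0.28, near a non-uniform spot), E2f1 (0.66 ± 0.29) and E2f6 (-0.58 ± 0.20).

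Inhibitors of cyclin-dependent kinases were also higher in part. Of 7 measured, 4 were at least 1.5-fold higher (57.1%, background 10.1%). They were Cdkn1c (1.04 ± 0.23), Cdkn2d (0.91 ± 0.20), Cdkn1b (0.79 ± 0.20, and 0.51 at its other probe) and Cdkn2c (0.71 ± 0.20). Cdkn3, a phosphatase gene carried in this family by name, was at 0.27 ± 0.21. Cdkn1a, which encodes p21, was at -0.35 ± 0.20 (near a non-uniform spot), and Cdkn2b at -0.12 ± 0.20. Cdkn2a was not well above background on either array.

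The difference changed with the brightness of the probe, and the classes differ in brightness. Measured genes were split into 3 equal groups by their mean signal on both arrays. The median of the members was 0.74 in the dimmest group (12 genes), 0.54 in the middle (17) and 0.35 in the brightest (12), while medians of all genes in these groups were -0.16, 0.04 and -0.04. Mitotic genes had medians of 0.76, 0.54 and 0.54 from dim to bright (9, 13 and 5 genes). Replication genes had medians of 0.18, 0.43 and 0.32 (3, 4 and 7 genes), so the mitotic median was the higher in each group.

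**Figure D4:**
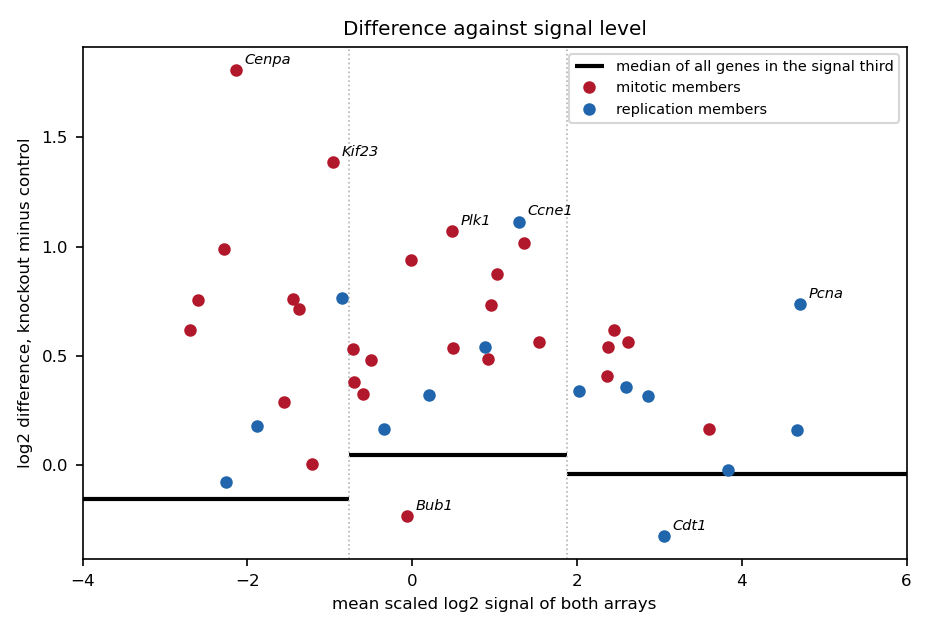
Log2 difference of each member (knockout minus control) against its mean scaled log2 signal on both arrays, with the median of all genes in each signal tertile as black lines. Cenpa and Kif23 are dim and highest, and Pcna is the brightest member with a large difference.

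Markers of other cells in the epidermis were compared beside these values, since the arrays read a mixture. Markers of basal keratinocytes, the cells that divide between hair follicles, had a median of -0.25. Of these, 0 of 5 were above 0 (46.1% of all genes), though the other probe of Trp63 was at 0.09. Median scaling adds 0.32 to each value, so the sign of all but Itga6 (-0.98 ± 0.20) rests on the scaling. The summed signal of this list relative to the 75th percentile was 682 and 581. Hair matrix and precortex markers had a median of -0.35 over 4 measured genes of 6 with a probe, and summed levels of 16.5 and 11.2. Msx2 (-0.98 ± 0.20) and Krt35 (-0.54 ± 0.20) were lower, Hoxc13 (-0.15 ± 0.32) was within its SE of 0, and Dlx3 (0.57 ± 0.23) was higher. Lef1 was at least 2.34-fold lower, and Shh was not well above background on either array. T-cell markers had a median of 0.21 (6 measured of 6) with summed levels of 18.4 and 17.5. Of the Langerhans cell markers, 3 of 4 were at least 1.5-fold higher (background 10.1%), with summed levels of 36.7 and 54.2. These were Cd207 (1.65 ± 0.21), Cd74 (0.76 ± 0.20) and H2-Aa (0.68 ± 0.20), while Epcam was lower (-0.38 ± 0.20). The largest marker differences were in cells of other kinds, all lower on the knockout array. Red blood cell markers had a median of -3.94 (3 measured of 4) with summed levels of 89.4 and 8.87. Skeletal muscle markers had a median of -3.77 (2 measured of 4) with summed levels of 2.95 and 0.25. Melanocyte markers had a median of -2.05, with 3 of 3 measured genes at least 2-fold lower (background 4.39%) and summed levels of 8.48 and 1.99. Suprabasal keratinocyte markers (-0.09, summed levels of 725 and 664) and fibroblast markers (-0.32, 12.3 and 10.6) were closer together, so the 2 RNAs differed in several markers of cell makeup. Whether a shift in cell types has a part in the values of the division genes was not tested.

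**Figure D5:**
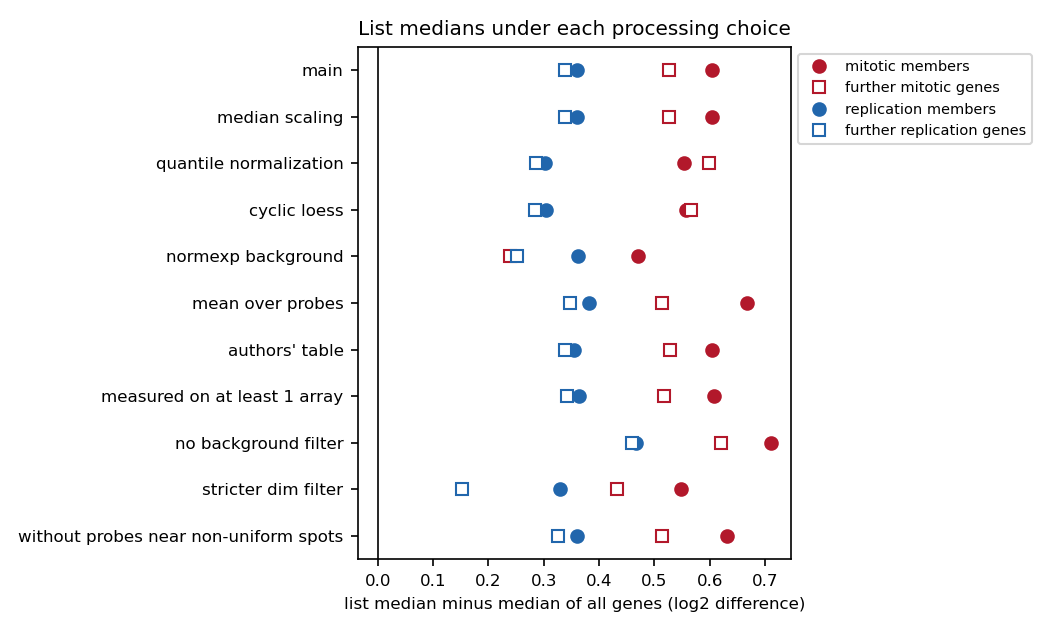
Median difference of each list minus the median difference of all genes (log2), under the main processing and 10 alternatives, for members (circles) and further genes of the pathway (squares). All medians lie above 0, from 0.15 to 0.71, and mitotic members lie above replication members in each setting, with the smallest gap under normexp.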

How the data were processed

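RNA of peeled epidermis was labelled with Cy3 and hybridised to 1 Agilent array per genotype. Per the file headers, the authors' scanner files hold spot intensity after background subtraction and detrending by Agilent Feature Extraction 10.7.3.1, on a design annotated on mm9, and both arrays share a slide and a scan. The log2 value table that the authors deposited is centred per probe, so it gives differences only. Its scale and direction follow from its agreement with the scanner differences (Pearson r 1.00 over probes).

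Signals were log2-transformed and the 75th percentile over non-control spots was subtracted. Outlier spots were dropped, spots of a probe averaged, and probes named through RefSeq accessions (GRCm38.p6 table, 64.8% of 41174 probes). A gene took its brightest probe well above background on both arrays. Named genes are all members, all CDK inhibitors, and up to 4 genes of each further list with the largest absolute difference. Genes of short marker lists (up to 6 members), Incenp and Kif2c are also named. The members and lists were chosen with earlier results of these data known. Alternatives used limma 3.58.1 in R 4.3.3 for normexp (offset 50), quantile and loess normalization. Python 3.11.15 with pandas 2.3.3 did the rest, and the calling code was tested on simulated data.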

Additional observations from a re-analysis of the deposited data

Results flagged for a closer look

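Some member probes that the comparison of genes did not use had signal on the knockout array above the level in the control. The second probe of Cdca8 had signals of 8.18 on the control array, where it was not well above background, and 30.7 on the knockout array. It was at least 2.07-fold higher by its bound, in the same direction as the brighter probe of the gene. The second probe of Ccne2 had signals of 10.4 on the control array, again not well above background, and 16.3 on the knockout array, at least 1.10-fold higher by its bound, while the brighter probe of Ccne2 was at -0.08 ± 0.29.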

How the results depend on the processing

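No paired analysis was possible because control and knockout RNA were each hybridised to 1 array. The medians of the mitotic and replication members, and of the further genes of each class, stayed above 0 under the 10 other ways of processing that were run. The other lists were not recomputed. With median scaling the mitotic and replication medians were 0.88 and 0.64, and 14 and 32 members were at least 2-fold and 1.5-fold higher. With normexp these counts were 1 (Ccne1) and 10, beside 1.48% and 6.29% of all genes. The gap between mitotic and replication medians ran from 0.11 with normexp to 0.30 without Mki67 and Foxm1. Leaving out the 3 members whose probes differ by over 0.5 (Bub1, Ccne1 and Cdc6), chosen after seeing the data, gave 0.27. With median scaling Cdt1 was the only member below 0, at -0.00. With cyclic loess Aurka was just under 2-fold. The stricter filter on dim probes left 36 members. Dim probes limit the values of Cenpa, Aurkb, Kif11, Ndc80 and Ccne2 most, and 1 array per genotype limits all of them.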
